A study of Homo sapiens with 4 samples.

Results

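The genes described here encode the nuclear subunits of the 4 respiratory complexes and of the ATP synthase of mitochondria. They were chosen by name, as the probes whose annotated symbol begins with NDUFA, NDUFB, NDUFC, NDUFS, NDUFV, UQCR, COX4 to COX8 or ATP5, or is SDHA, SDHB, SDHC or SDHD, without the NDUFAF assembly factors. The rule took 95 of 24460 probes, for 85 of 17621 named genes. Of the 85, 78 encode structural subunits: 36 of complex I, 4 of complex II, 7 of complex III, 16 of complex IV and 15 of the ATP synthase (complex V). The other 7 share a name but are not subunits: ATP5F1EP2 and ATP5MFP3 (pseudogenes), DMAC2 and DMAC2L (named ATP5SL and ATP5S on the array), EMC8 (named COX4NB, a subunit of the endoplasmic reticulum membrane complex), COX7A2L and COXFA4L2 (named NDUFA4L2). NDUFA4 was counted in complex IV.

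Complex I takes electrons from NADH and complex II takes them from succinate. Ubiquinone carries them to complex III and cytochrome c carries them on to complex IV, which reduces oxygen. Complexes I, III and IV pump protons across the inner mitochondrial membrane, and the ATP synthase makes ATP as the protons flow back through the ring of c subunits in its membrane part, Fo, and turn the catalytic head, F1. Glutamine feeds this chain through the tricarboxylic acid cycle, so cells can draw on it when glycolysis has no glucose.

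RNA of HT29 and DLD1, both established human colorectal adenocarcinoma cell lines, was measured on single-colour (Cy5) oligonucleotide arrays. Cells of each line were kept for 24 h with 2 mM glutamine and no glucose, or with 10 mM glucose and 2 mM glutamine, and dialysed serum at 10% was present throughout. With 1 array for each line and medium, 4 in all, a change within a line has no replicate check. It is therefore given without a p-value, and no label says whether cultures were repeated. The change of medium was repeated only across the lines, so p-values for the medium rest on the spread between these 2 lines. Those for the line rest on the spread between the 2 media. In both, limma draws the spread of each gene toward that of all genes. RNA came from whole cultures, in which fewer cells and less RNA per cell cannot be told apart.

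Between 85.5% and 87.0% of probes were above background, which here means above the 95th percentile of the blank spots. Of 9 measured markers of colorectal epithelium, 9 were above background on all 4 arrays, although some were near it. These were CDX2 in HT29 (5.88 without and 5.83 with glucose, against 7.97 and 8.67 in DLD1) and LGALS4 in DLD1 (6.13 and 5.95, against 11.97 and 11.25 in HT29). CDX1 was near it in both lines (6.25 and 6.10 in HT29, and 6.05 and 6.01 in DLD1). The summed linear level of the 9 markers was 33736 and 44075 in HT29 without and with glucose and 34819 and 38748 in DLD1, and their part in the results was not tested. The fibroblast genes COL1A1, COL1A2 and COL3A1 and the leukocyte gene PTPRC were not well above background on any array. Above background on all 4 arrays were 1 of 5 fibroblast, 3 of 4 leukocyte and 1 of 2 endothelial genes. DCN (fibroblast) had 7.34 and 7.29 in HT29 without and with glucose, and 7.36 and 7.37 in DLD1. CD79A (leukocyte) had 7.58 and 7.42 in HT29, and 7.36 and 7.26 in DLD1. CD68 (leukocyte) had 7.17 and 6.22 in HT29, and 6.60 and 6.19 in DLD1. Their part in the results was not tested. Of the 85 respiratory genes, 84 were above background on at least 1 array. COX7B2, a testis isoform of complex IV, was not well above background on any. COXFA4L2 was above background in HT29 alone, where it was at least 1.02-fold higher than in DLD1 without glucose. The remaining 83 were above background on all 4 arrays.

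Promoter sequence from RefSeq was matched for 69 of the 85 genes, as windows from 250 bases before to 50 bases after each transcription start on GRCh38.p14. Stretches of 150 bases upstream of the start are printed for 5 genes that the results turn on. ATP5MC1 and ATP5MC2 encode the same c subunit but differed between media. SDHA, NDUFA3 and UQCRFS1 were lower without glucose in both lines, although SDHA changed little in DLD1 (-0.22, against -1.18 in HT29). They hold the letters bound by nuclear respiratory factor 1 (NRF1), a known regulator of respiratory genes. They were picked from 15 respiratory genes with these letters, not all of which were lower in both lines. A link between the letters and the change was not tested. Capitals mark matches to NRF1 (GCGC and TGCGC with any 1 base between them) or the CCAAT box (CCAAT), read on both strands.
ATP5MC1: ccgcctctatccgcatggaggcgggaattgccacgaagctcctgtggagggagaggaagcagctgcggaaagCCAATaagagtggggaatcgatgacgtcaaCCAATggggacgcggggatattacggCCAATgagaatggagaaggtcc
ATP5MC2: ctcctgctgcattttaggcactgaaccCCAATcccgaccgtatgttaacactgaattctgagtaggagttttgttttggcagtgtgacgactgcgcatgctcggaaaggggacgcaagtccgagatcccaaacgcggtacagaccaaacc
SDHA: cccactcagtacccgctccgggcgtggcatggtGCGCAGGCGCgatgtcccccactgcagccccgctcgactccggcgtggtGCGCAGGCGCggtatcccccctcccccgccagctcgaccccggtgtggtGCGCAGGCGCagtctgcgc
NDUFA3: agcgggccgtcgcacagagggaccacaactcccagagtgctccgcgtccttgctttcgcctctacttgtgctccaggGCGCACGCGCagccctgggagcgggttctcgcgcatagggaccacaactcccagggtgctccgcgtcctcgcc
UQCRFS1: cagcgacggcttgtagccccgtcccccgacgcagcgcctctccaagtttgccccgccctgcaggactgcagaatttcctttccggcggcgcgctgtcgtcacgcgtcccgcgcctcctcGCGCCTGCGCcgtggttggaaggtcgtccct

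These stretches lie at chr17:48892637-48892786 (plus strand) for ATP5MC1, chr12:53676331-53676480 (minus strand, the most upstream of 3 listed starts) for ATP5MC2, chr5:218170-218319 (plus strand) for SDHA, chr19:54102705-54102854 (plus strand) for NDUFA3 and chr19:29213152-29213301 (minus strand) for UQCRFS1. SDHA held the NRF1 letters at 117, 68 and 19 bases before its start. ATP5MC1 held CCAAT at 78, 48 and 22 bases before its start. ATP5MC2 held CCAAT at 123 bases before the printed start, and the stretches before its other listed starts held no match. Over the whole windows, NRF1 letters were found for 15 of 69 respiratory genes (21.7%), against 6.98% of 27305 genes with a promoter and 10.6% of the genes measured here. The ETS letters CCGGAAG were found for 21 genes (30.4%), against 12.2% and 17.6%, the YY1 letters AAGATGGCG for 9 genes, against 2.14% and 3.58%, and CCAAT for 24 (34.8%), against 39.7% and 42.4%. The ETS and YY1 letters can overlap. Respiratory genes with the NRF1 letters had a median log2 change of -0.50 in HT29 and -0.18 in DLD1, against -0.45 and -0.15 for those without them. Those with CCAAT had -0.37 and 0.01, against -0.50 and -0.16 without it. For the ETS letters the medians were -0.41 and -0.16 with them, against -0.55 and -0.13 without, and for the YY1 letters -0.59 and -0.08, against -0.47 and -0.18.

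The comparison of media asks how expression differs when glucose is withdrawn and glutamine is left. Most respiratory genes were lower without glucose. The fall was larger in HT29 than in DLD1, although hardly so with the local background subtracted (median difference, HT29 minus DLD1, of -0.04, against -0.34 as processed here). The 84 measured genes had a median log2 change, without over with glucose, of -0.48 in HT29 and -0.15 in DLD1, against 0.00 in both lines for all 16635 measured genes. The respiratory genes are brightly read, since 61 of the 84 lie in the brightest 10% of measured genes, and that brightest 10% had medians of -0.13 in HT29 and -0.06 in DLD1. The HT29 and DLD1 medians of the respiratory genes were negative under every processing tried, but ranged between -0.75 and -0.24 in HT29 and between -0.48 and -0.03 in DLD1. The lower ends came with median scaling in place of quantile normalization, under which the brightest 10% also had -0.37 in each line, and the upper ends with the local background subtracted.

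Of the 84 genes, 56 were lower without glucose in both lines, where 32.2% of all measured genes were and 41.8% of the brightest 10%. Another 6 were higher in both, against 30.5% of all genes, and 21 were lower in HT29 but higher in DLD1, against 18.3%. The reverse held for 1, against 18.8%. In HT29, 36 were at least 1.5-fold lower, against 8.47% of all genes and 24.3% of the brightest 10%, and 8 at least 2-fold lower, against 3.14% and 10.7%. In DLD1, 8 were at least 1.5-fold lower, against 4.32% and 15.2%, and 3 at least 2-fold lower, against 0.775% and 3.79%. The count lower in both lines was above both backgrounds, but with the local background subtracted it was 36 (42.9%), against 29.3% of all genes and 35.2% of the brightest 10% so processed. Of the 61 respiratory genes in the brightest 10%, 31 were at least 1.5-fold lower in HT29 (50.8%, against 24.3%) and 6 in DLD1 (9.84%, against 15.2%). At 2-fold these were 8 in HT29 (13.1%, against 10.7%) and 3 in DLD1 (4.92%, against 3.79%). With the local background subtracted the order of the lines turned, both for the respiratory genes and for all genes. Then 21 of the 84 genes were at least 1.5-fold lower in HT29 and 26 in DLD1, against 6.61% and 7.55% of all genes. At least 2-fold lower were 9 and 15, against 2.53% and 3.36%. The HT29 change was below the DLD1 change in 66 of 84 genes, against 49.8% of all genes and 55.2% of the brightest 10%, with the median difference of -0.34 given above. That difference was not tested, because 4 arrays leave no residual degree of freedom for it.

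**Figure D1:**
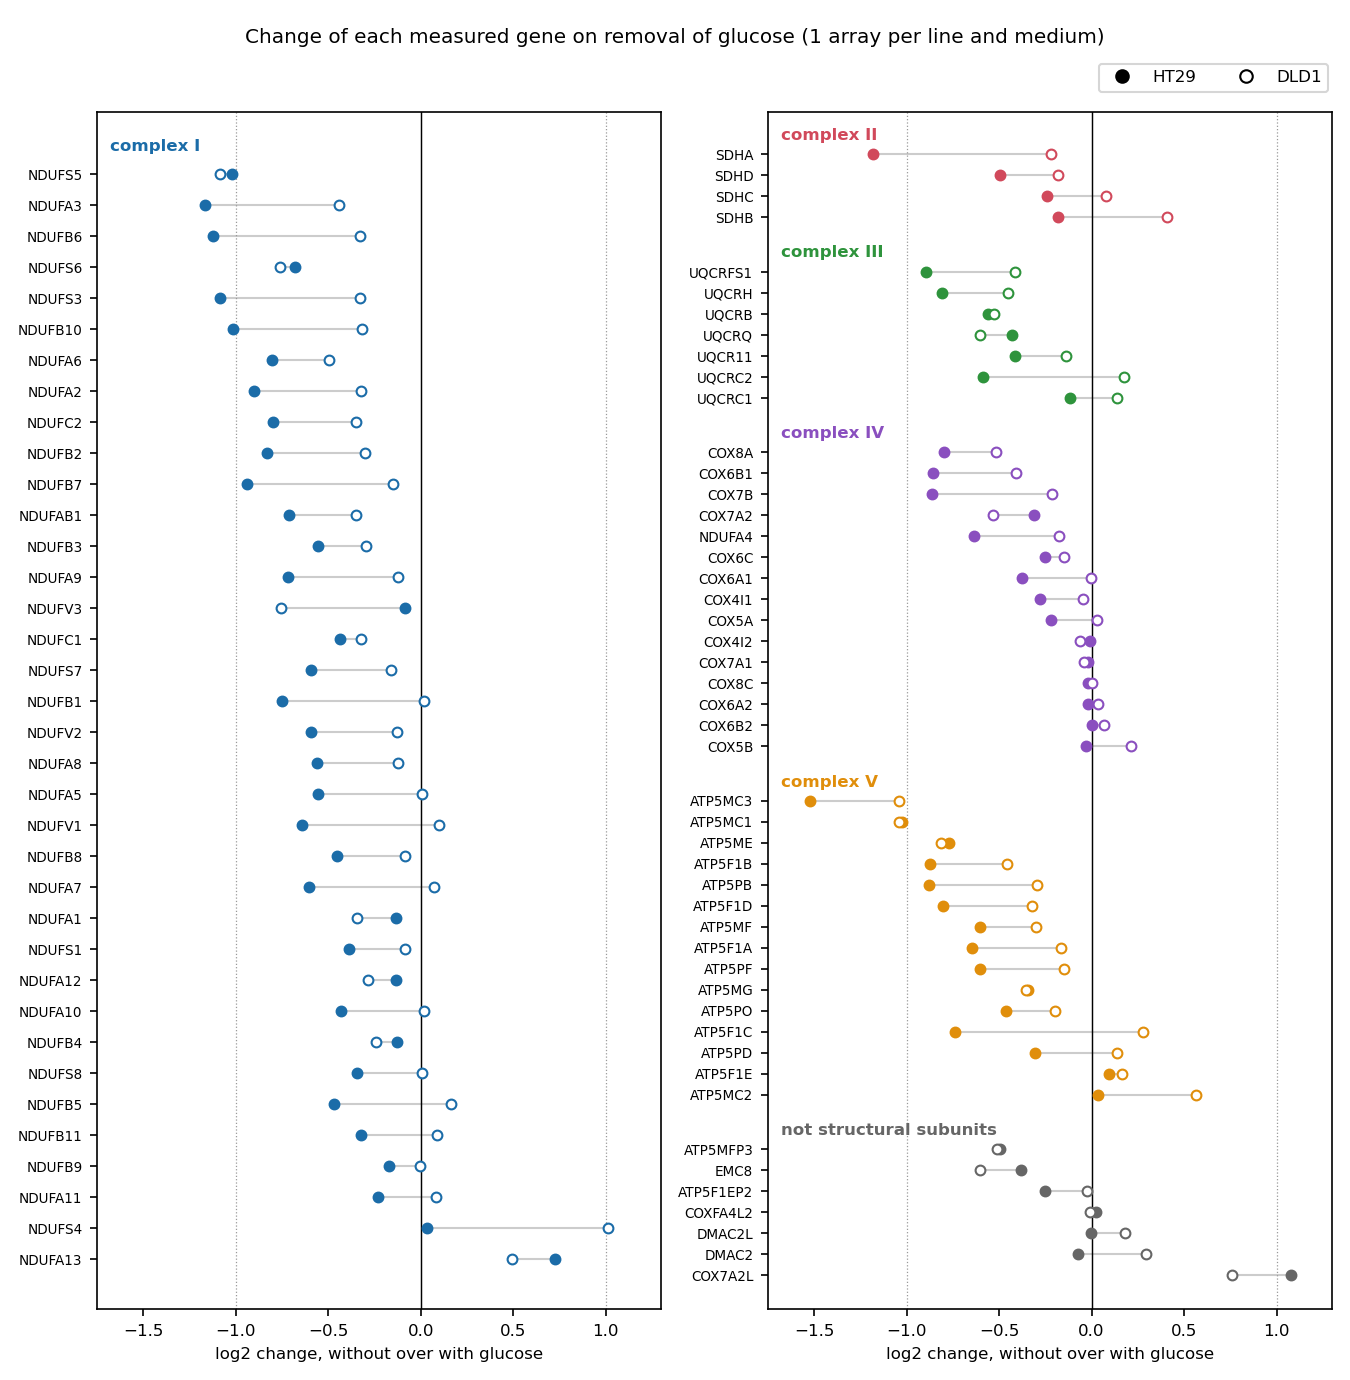
Log2 change without over with glucose for each of the 84 measured genes, grouped by complex, with filled points for HT29, open points for DLD1 and dotted lines at 2-fold. Most pairs lie left of 0 and 66 of the 84 filled points lie left of their open partner.

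Limma, with the line as a block and Benjamini-Hochberg adjustment over all genes, called 0 of the 84 genes for the mean effect of the medium (smallest adjusted p = 0.304, as over all genes, of which 0% were called). At an unadjusted limma p below 0.05 there were 19 respiratory genes, 17 lower (7.47% of all genes) and 2 higher (5.88%) without glucose, against 13.3% of all genes in either direction. This is 22.6% of the 84, against 32.1% of the brightest 10%. The fit has 1 residual degree of freedom.

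The ATP synthase had the lowest median among the complexes in HT29, at -0.65, with -0.29 in DLD1, and 11 of its 15 subunit genes were lower in both lines. Complex I was lowest in HT29 with median scaling (-0.87, against -0.78 for the ATP synthase), and complex II with the local background subtracted (-0.71, against -0.44). The lowest ATP synthase genes encode the c subunit, of which the membrane ring is built. Humans carry 3 genes for it, ATP5MC1, ATP5MC2 and ATP5MC3, whose mature proteins are identical and which differ in the peptide that targets them to mitochondria. ATP5MC3, on chromosome 2, had normalised log2 signals of 11.44 without and 12.96 with glucose in HT29, and 12.32 without and 13.36 with glucose in DLD1. ATP5MC1 had 10.08 and 11.11 in HT29 without and with glucose, and 10.46 and 11.50 in DLD1. Both arrays without glucose lay below both arrays with glucose for these 2 genes. In the deposited linear values ATP5MC1 stood at 965.0 without and 2069 with glucose in HT29, and at 885 without and 2165 with glucose in DLD1.

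The log2 change of ATP5MC3 was -1.52 in HT29 and -1.04 in DLD1 (mean -1.28 ± 0.34, SD, n = 2 lines), and that of ATP5MC1 was -1.02 and -1.04 (mean -1.03 ± 0.01, SD, n = 2 lines). ATP5MC2, on chromosome 12, did not follow them. It had 11.61 without and 11.57 with glucose in HT29, and 12.08 without and 11.51 with glucose in DLD1, which gives changes of 0.03 and 0.56. DLD1 without glucose stood above the other 3 arrays, which lay close together. The ATP5MC2 change in DLD1 was -0.46 with the local background subtracted, and that in HT29 was -0.17 with median scaling, whereas ATP5MC1 and ATP5MC3 stayed lower in both lines under every processing tried.

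Among the other membrane and stalk genes, ATP5ME, whose e subunit helps ATP synthase dimers to form, had changes of -0.77 in HT29 and -0.82 in DLD1 (mean -0.79 ± 0.03, SD, n = 2 lines). In the F1 head, ATP5F1B, the catalytic beta subunit, had 12.02 without and 12.90 with glucose in HT29, and 12.69 without and 13.15 with glucose in DLD1. Its change was -0.88 in HT29 and -0.46 in DLD1, but -0.33 and -0.51 with the local background subtracted. ATP5F1C, the gamma subunit that forms the rotating stalk, had 10.71 without and 11.45 with glucose in HT29, and 10.97 without and 10.69 with glucose in DLD1. It was thus lower without glucose in HT29 (-0.74) and higher in DLD1 (0.28), although the DLD1 sign turned to negative with median scaling, with the local background subtracted and in the deposited values. ATP5F1E, the epsilon subunit, had 0.09 and 0.16, both negative with median scaling. The median of the 5 F1 genes was -0.74 in HT29 and -0.16 in DLD1, and that of the 10 Fo and stalk genes was -0.60 and -0.30.

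**Figure D2:**
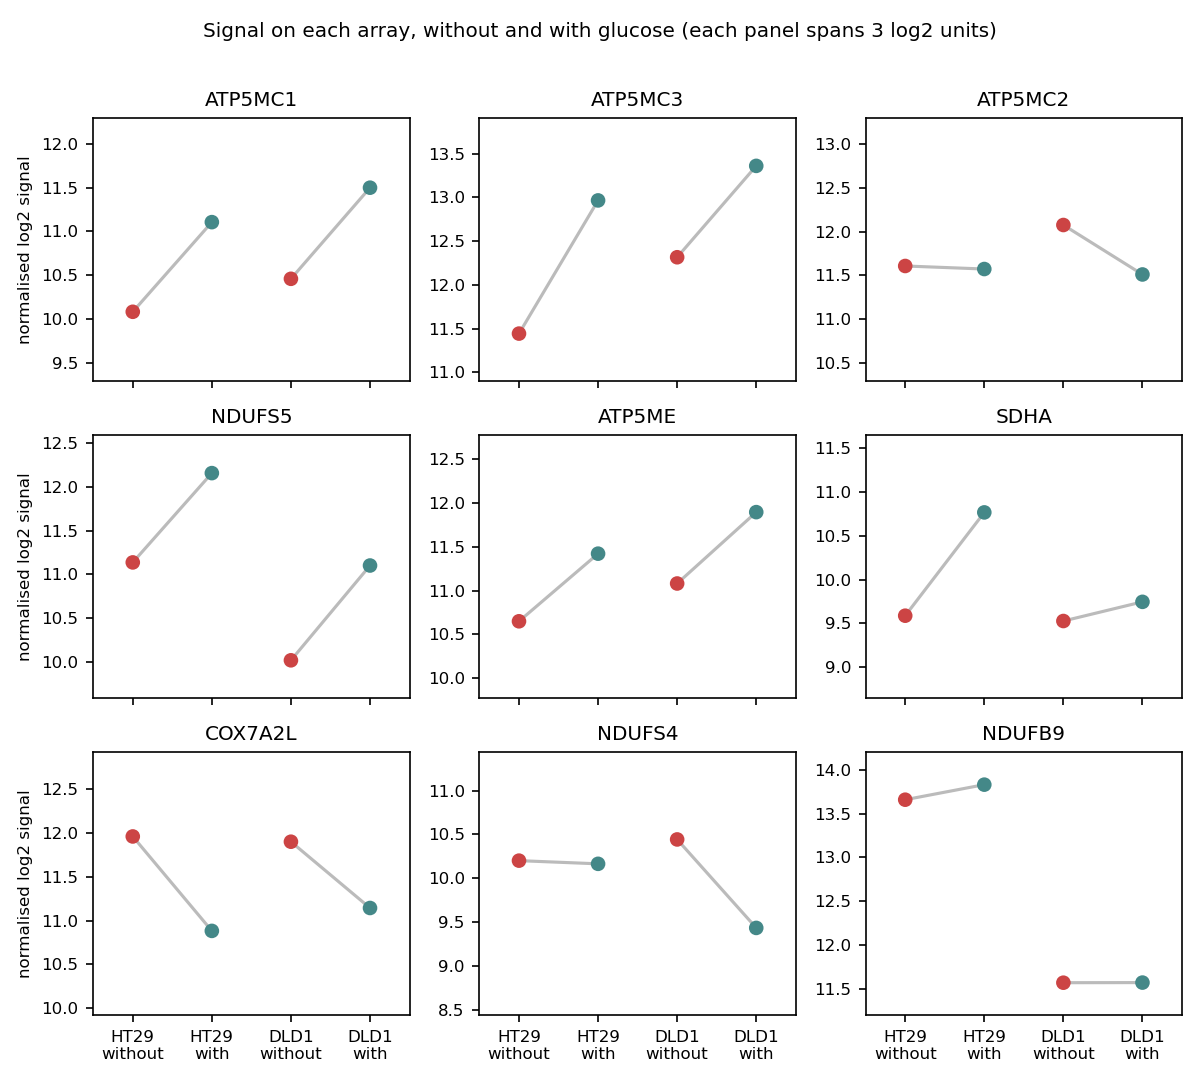
Normalised log2 signal of 9 genes on each of the 4 arrays, in the order HT29 without, HT29 with, DLD1 without and DLD1 with glucose, joined within a line. ATP5MC1, ATP5MC3, ATP5ME and NDUFS5 are lower without glucose in both lines, and ATP5MC2 is not. NDUFB9 differs more by line than by medium as processed here.

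Complex I had median changes of -0.58 in HT29 and -0.15 in DLD1, and 25 of its 36 genes were lower in both lines. NDUFS5, an accessory subunit on the intermembrane side of the membrane arm, had 11.14 without and 12.16 with glucose in HT29, and 10.02 without and 11.10 with glucose in DLD1. Its changes of -1.02 and -1.08 (mean -1.05 ± 0.04, SD, n = 2 lines) were alike in size, while the lines themselves stood more than 1 log2 unit apart in each medium. NDUFS5, ATP5MC1 and ATP5MC3 were the 3 genes at least 2-fold lower in both lines. With cyclic loess NDUFS5 had -0.92 in HT29 and ATP5MC3 had -0.93 in DLD1, and in the deposited values NDUFS5 had -0.95 in HT29, so that ATP5MC1 alone passed 2-fold in both lines under every processing tried. NDUFS6, a zinc-binding subunit of the NADH-oxidising N module, had -0.68 and -0.76 (mean -0.72 ± 0.06, SD, n = 2 lines), and together with ATP5ME it completed the 5 genes at least 1.5-fold lower in both lines, against 2.43% of all genes and 9.38% of the brightest 10%. With the local background subtracted, the HT29 change of NDUFS6 was 0.50.

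Other complex I genes were at least 2-fold lower in HT29 alone. NDUFA3, an accessory subunit of the membrane arm, had 10.46 without and 11.63 with glucose in HT29, and 10.55 without and 10.99 with glucose in DLD1, for changes of -1.17 and -0.44. These were -1.58 and -2.96 with the local background subtracted. NDUFB6, of the distal membrane arm, had -1.13 and -0.33, of which the DLD1 value was 0.12 with the local background subtracted. NDUFS3, a core subunit of the module that binds ubiquinone, and NDUFB10, of the distal membrane arm, had -1.08 and -1.01 in HT29 and -0.33 and -0.32 in DLD1. These last were named after their values were seen, to complete the 8 genes at least 2-fold lower in HT29. By module, the medians in HT29 and DLD1 were -0.49 and -0.21 for 8 N module genes, -0.60 and -0.12 for 7 Q module genes, and -0.55 and -0.24 for the 21 genes of the membrane arm and other accessory subunits. The modules lay close together within each line.

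A few complex I genes went the other way. NDUFS4, an N module subunit whose loss in humans causes Leigh syndrome, had 10.20 without and 10.16 with glucose in HT29, and 10.44 without and 9.43 with glucose in DLD1. Its change of 1.01 in DLD1 was the only one there of at least 2-fold upward, while HT29 had 0.04. In DLD1 1.13% of all genes and 4.93% of the brightest 10% were at least 2-fold higher. Median scaling gave -0.27 in HT29, and subtracting the local background gave 2.88 in HT29 and 3.80 in DLD1. NDUFV3, a small subunit beside the flavoprotein, showed the reverse pattern between lines, with -0.08 in HT29 and -0.76 in DLD1, both positive with the local background subtracted. NDUFA13, also known as GRIM-19, averaged 0.73 and 0.49 over 2 probes that disagreed. The dimmer probe had 8.08 without and 6.60 with glucose in HT29, and 7.78 without and 7.06 with glucose in DLD1. The brighter probe had 9.53 and 9.56 in HT29 without and with glucose, and 10.64 and 10.38 in DLD1, so the change in HT29 rests on the dimmer one. The averaged change in DLD1 was -0.88 with the local background subtracted.

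In complex II, the only respiratory complex encoded wholly in the nucleus and also an enzyme of the tricarboxylic acid cycle, the median was -0.37 in HT29 and -0.05 in DLD1, of which the DLD1 value was 0.08 with the local background subtracted. SDHA, the flavoprotein that oxidises succinate, had 9.59 without and 10.77 with glucose in HT29, and 9.53 without and 9.75 with glucose in DLD1. HT29 with glucose stood above the other 3 arrays, which lay within 0.22 of each other. The change was -1.18 in HT29 and -0.22 in DLD1 (mean -0.70 ± 0.68, SD, n = 2 lines). SDHB, the iron-sulfur subunit, had 10.47 without and 10.65 with glucose in HT29, and 11.11 without and 10.70 with glucose in DLD1, for changes of -0.18 and 0.41. The membrane anchors SDHC and SDHD had -0.24 and -0.50 in HT29 and 0.08 and -0.18 in DLD1. With median scaling the DLD1 values of SDHB and SDHC were negative, and with the local background subtracted that of SDHA was 0.26. The 4 subunit genes therefore did not move by a common amount, and 2 of the 4 were lower in both lines.

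Complex III had medians of -0.56 in HT29 and -0.41 in DLD1, and 5 of its 7 genes were lower in both lines. Its DLD1 median was -0.24 with cyclic loess and 0.03 with the local background subtracted. UQCRFS1, the Rieske iron-sulfur protein, had 11.32 without and 12.21 with glucose in HT29, and 11.58 without and 12.00 with glucose in DLD1, for changes of -0.90 and -0.41. UQCRH, the hinge protein that holds cytochrome c1, had -0.81 and -0.45, which became 3.95 and 4.73 with the local background subtracted. UQCRB, a small subunit near the ubiquinone site that was read close to background, had -0.56 and -0.53 (-2.22 and -1.08 in the deposited values, and -0.04 and 0.17 with the local background subtracted), and UQCRQ, its neighbour, had -0.43 and -0.60. The core proteins differed from these in the sign of the DLD1 change as processed here. UQCRC1 had -0.12 in HT29 and 0.14 in DLD1, and UQCRC2 had -0.59 and 0.17, and both DLD1 values were negative with median scaling or in the deposited values. UQCRC1 had 1.75 and 3.71 with the local background subtracted.

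Complex IV had the smallest median changes in size in HT29, -0.25, with -0.05 in DLD1, and 10 of its 15 measured genes were lower in both lines. Of these 15, 5 are isoforms of other tissues (COX4I2, COX6A2, COX6B2, COX7A1 and COX8C, known from lung, muscle or testis), whose signals of 5.75 to 6.37 sat just above the blank spots and whose changes were within 0.07 of 0. Such dim genes are shrunk by the offset, and COX7A1 had -0.37 in HT29 and -0.66 in DLD1 in the deposited values. Without them the 10 remaining genes had -0.34 and -0.16. COX8A, the common isoform of the smallest subunit, had 12.22 without and 13.01 with glucose in HT29, and 11.95 without and 12.47 with glucose in DLD1, for changes of -0.80 and -0.51. COX6B1, on the side that meets cytochrome c, had -0.86 and -0.41, and COX7B -0.86 and -0.21. COX7A2 had -0.31 and -0.54, both positive with the local background subtracted. The regulatory subunits changed less in size, with COX4I1 at -0.28 and -0.05, COX5A at -0.22 and 0.03 and COX5B at -0.03 and 0.21. COX6A1 had -0.37 and 0.00, and NDUFA4 had -0.64 and -0.18. With median scaling the DLD1 values of COX5A and COX5B were negative, and with the local background subtracted COX6A1 had 3.52 and 5.26 and NDUFA4 had 1.58 in HT29. The DLD1 value of NDUFA4 was 0.05 with cyclic loess.

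COX7A2L, a relative of COX7A2 that joins complexes III and IV into supercomplexes, was the gene of the whole set with the largest positive mean change. It had 11.96 without and 10.88 with glucose in HT29, and 11.90 without and 11.14 with glucose in DLD1. Both arrays without glucose lay above both arrays with glucose. The changes were 1.08 in HT29 and 0.76 in DLD1 (mean 0.92 ± 0.23, SD, n = 2 lines), and they were positive under every processing tried. In HT29 it was the only gene of the set at least 2-fold higher, against 3.6% of all genes and 10.2% of the brightest 10%. Among the other genes that are not subunits, EMC8 had -0.38 in HT29 and -0.60 in DLD1, DMAC2 had -0.07 and 0.29, and DMAC2L had 0.00 and 0.18. The pseudogene probes of ATP5MFP3 (-0.49 and -0.51) and ATP5F1EP2 (-0.25 and -0.03) may also read the transcripts of ATP5MF and ATP5F1E, which they resemble, so the source of their signal is uncertain.

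**Figure D3:**
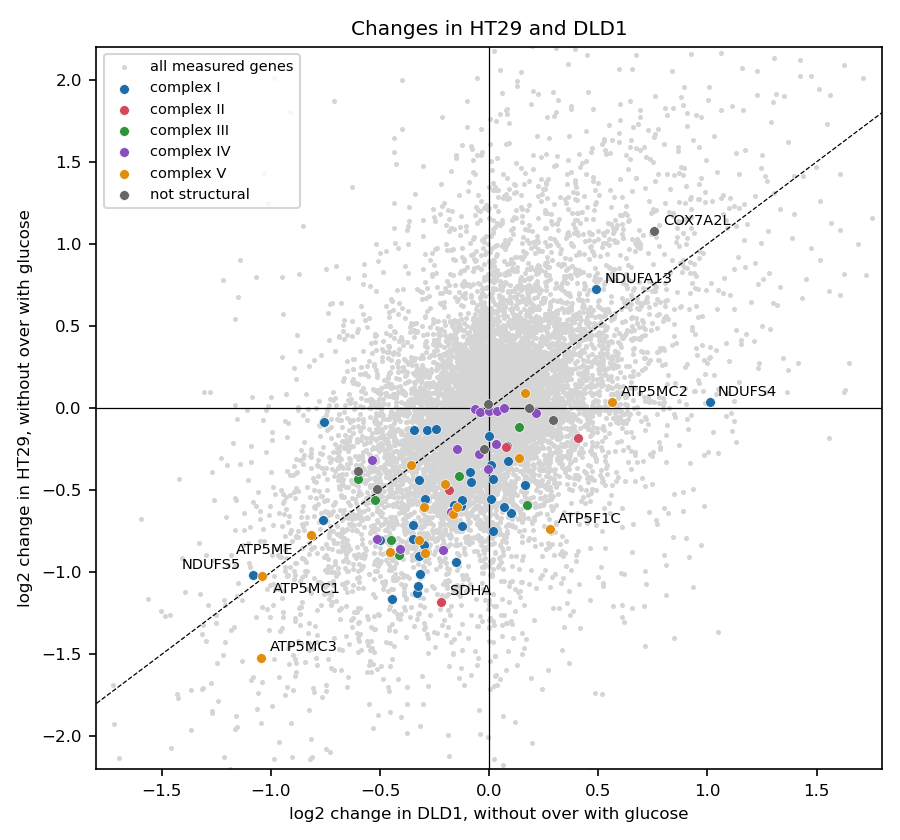
Log2 change in HT29 (vertical) against DLD1 (horizontal), without over with glucose, for all 16635 measured genes in grey and the 84 respiratory genes by complex, with the dashed line marking equal change. Of the grey genes 144 lie outside the axes. NDUFS5, ATP5MC1 and ATP5MC3 lie near or below -1 on both axes, and COX7A2L lies in the upper right.

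Factors that build these complexes were read as further genes of the pathway. Beside their counts stand the 32.2% of all genes that were lower in both lines and the 30.5% that were higher. Of 16 complex I assembly genes, 11 were lower without glucose in both lines and 0 higher, with medians of -0.30 in HT29 and -0.31 in DLD1. NDUFAF8 was the lowest of them (-1.23 and -1.02). For complex II, 2 of 3 were lower in both, with medians of -0.50 and -0.38, and SDHAF3, which helps to mature SDHB, had -1.42 and -0.54. For complex III, 7 genes that include the subunit gene CYC1 had medians of -0.61 and -0.15, with 4 lower and 1 higher in both. UQCC3 had -1.36 and -0.96, and BCS1L, which inserts the Rieske protein, had -0.70 and -0.84.

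Of 21 complex IV assembly genes, 13 were lower and 3 higher in both lines. Their medians were -0.35 in HT29 and -0.22 in DLD1. COX16 had -1.39 and -0.66, and COX11, which helps to deliver copper, had -1.43 and -0.46. For the ATP synthase, 2 of 4 were lower in both lines and 1 was higher in both, with medians of -0.46 and -0.28. The 1 higher in both was TMEM242, with only 0.01 and 0.02 at signals of 5.72 to 5.76, near background. TMEM70, which acts in assembly of the c ring, had -0.83 and -0.75. Of 15 genes of ubiquinone synthesis and cytochrome c, 6 were lower and 3 higher in both, with medians of -0.35 and 0.15. CYCS, the cytochrome c gene, was read near background, where changes are shrunk. It had 5.76 and 5.77 in HT29 without and with glucose, and 5.78 and 5.82 in DLD1. PDSS1, which starts the ubiquinone side chain, had -1.10 and -1.02, and COQ10B, a ubiquinone-binding protein, had 1.26 and 0.49. In limma 0 of these genes were called (smallest adjusted p = 0.304), with 5, 1, 3, 5, 2 and 2 of them at an unadjusted p below 0.05 in the order given, against 13.3% of all genes. The 13 subunits encoded in mitochondrial DNA were not analysed here.

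The comparison of lines asks how HT29 differs from DLD1 in each medium. The median log2 ratio of HT29 over DLD1 was -0.25 without glucose and 0.04 with glucose for the 84 genes. Both values were positive with median scaling (0.06 and 0.29) and in the deposited values (0.20 and 0.34). Without glucose, 9 of the 84 genes were at least 2-fold lower in HT29, against 4.56% of all genes and 11.7% of the brightest 10%, and 3 at least 2-fold higher, against 4.54% and 9.8%. With glucose, 0 were at least 2-fold lower, against 2.61% and 5.77%, and 4 at least 2-fold higher, against 3% and 5.77%. Limma, with the medium as a block, called 0 of the 84 between the lines (smallest adjusted p = 0.138, as over all genes, of which 0% were called), and 27 had an unadjusted p below 0.05, against 21% of all genes and 35.7% of the brightest 10%.

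NDUFB9, a subunit of the distal membrane arm of complex I, differed most between the lines. It had 13.66 without and 13.83 with glucose in HT29, and 11.57 in each medium in DLD1. Both HT29 arrays lay above both DLD1 arrays, by 2.09 without and 2.26 with glucose. As processed here, neither line changed by more than 0.17 between media. The changes of NDUFB9 were -0.67 in HT29 and -0.90 in DLD1 with the local background subtracted. They were 0.07 and 0.04 with cyclic loess, and 0.13 and -0.23 in the deposited values. NDUFB9, NDUFS5 (1.12 and 1.06) and NDUFS6 (1.13 and 1.05) were the 3 genes at least 2-fold higher in HT29 in both media, against 1.73% of all genes. ATP5MG, the g subunit, was higher in HT29 by 0.81 and 0.80. The lowest in HT29 were ATP5F1A, the alpha subunit of F1, at -1.47 without and -0.98 with glucose, and NDUFA8 at -1.39 and -0.95. ATP5F1D, the delta subunit, had -1.37 and -0.88, and ATP5PO, the stalk protein OSCP, had -1.17 and -0.90. Each of these 4 was lower on both HT29 arrays than on both DLD1 arrays, but 0 genes were at least 2-fold lower in HT29 in both media, against 1.82% of all genes.

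**Figure D4:**
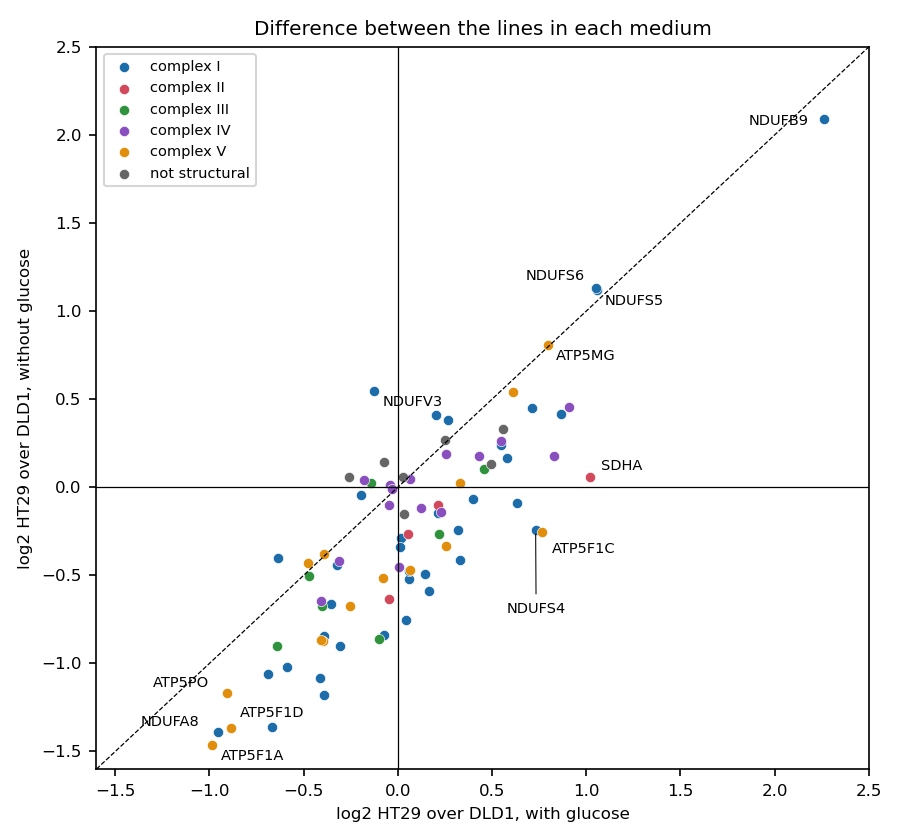
Log2 ratio of HT29 over DLD1 without glucose (vertical) against the same ratio with glucose (horizontal) for the 84 genes by complex, with the dashed line marking equal ratios. NDUFB9 stands apart at 2.09 and 2.26, and SDHA, NDUFS4 and ATP5F1C lie well below the line.

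**Figure D5:**
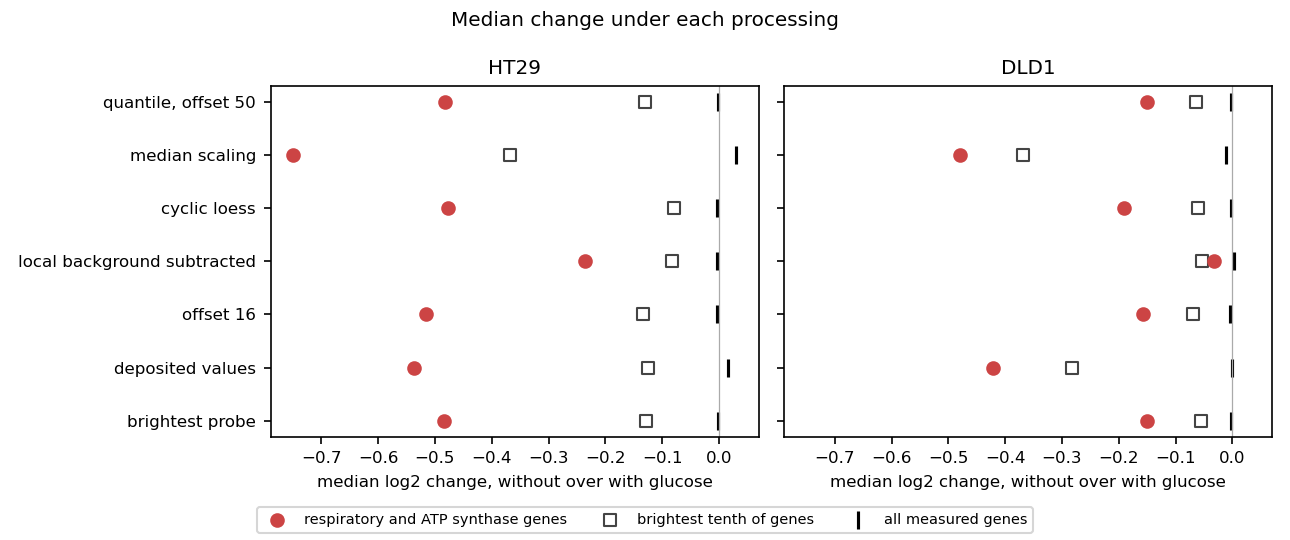
Median log2 change without over with glucose under 7 ways of processing, in HT29 (left) and DLD1 (right), for the 84 respiratory genes (filled circles), the brightest 10% of genes (squares) and all measured genes (bars). The circles lie below 0 throughout, lowest with median scaling and closest to 0 with the local background subtracted.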

How the data were processed

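The 4 arrays were grouped by sample titles and characteristics. Amino-allyl RNA was amplified from total RNA before coupling to Cy5, per the labels' protocols. Per the file headers, each scanner file gives the median intensity of every spot and of its surroundings, read at 635 nm over 3 gains, and no background had been taken off. The software for the images was not given in the sources used here. Intensity, linear in scale, also fills the authors' deposited value table. Its columns followed the spot medians (r = 1 to 3 decimals) with a median of 25 on every array, which settles scale, centring and direction, but how it was made is not stated. Each array had 27456 spots, 2680 of them blank, and 1 probe was dropped for a spot flag. The probe median was 53.1 to 57.9, against blank medians of 34.4 to 35.6, and the number of arrays limits the precision.

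Normexp with an offset of 50, which shrinks changes of dim genes, and quantile normalization were run in limma 3.58.1 (R 4.3.3). Local background was set aside, since its logs correlated with those of the signal (r = 0.904 to 0.966). Symbols came from the platform annotation (20236 probes with 1 symbol, 0 with several, 4224 with none), and 2815 were updated through RefSeq names. Gene values are means over probes above background on at least 1 array. Where a group was dim, the fold is a lower limit, set by the lowest normalized log2 signal above background.

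Genes were counted at 1.5-fold and 2-fold within a line, without a test. Limma tested the medium with the line as a block, and the line with the medium as a block, with Benjamini-Hochberg adjustment over 16635 genes at 0.05. The lines pair the arrays, since each gave an array with and without glucose. The fits were tested on simulated data. Alternatives were median scaling, cyclic loess, local background subtraction, an offset of 16, the deposited values, other filters on dim probes, the brightest probe, probes kept apart and fits without the block. The members and gene lists were chosen with earlier results of these data known. Genes were named by rule: in each complex the 4 lowest and 2 highest subunits by mean change, every complex II subunit, the isoform families, the 3 extremes each way of the difference in change between lines, the 4 highest and lowest between lines, genes that are not subunits, genes whose probes disagree, and up to 2 of each assembly list. Figures were drawn with matplotlib 3.10.9.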

Additional observations from a re-analysis of the deposited data

Results flagged for a closer look

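For 6 of the 84 genes the array pairs of the lines moved in opposite directions, lower without glucose in HT29 and higher in DLD1, each by at least 0.1 on the log2 scale. For the 6, the HT29 change minus the DLD1 change was -1.02 for ATP5F1C, -0.76 for UQCRC2, -0.63 for NDUFB5, -0.59 for SDHB, -0.44 for ATP5PD and -0.26 for UQCRC1. The difference was not tested, since 1 array per line and medium leaves no residual degree of freedom. NDUFB5, of the distal membrane arm of complex I, had -0.47 in HT29 and 0.16 in DLD1, and ATP5PD, of the ATP synthase stalk, had -0.30 and 0.14; neither falls under the rule for named genes. All 6 DLD1 changes were negative with median scaling, and those other than SDHB also with the deposited values. With the local background subtracted the lines still moved in opposite directions for SDHB (-0.42 and 0.40), ATP5PD (-0.44 and 0.07) and UQCRC2 (-0.18 and 0.03). There ATP5F1C had -0.31 and -1.10, UQCRC1 had 1.75 and 3.71, and NDUFB5 had 0.10 and -1.07.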

How the results depend on the processing

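The HT29 and DLD1 medians kept their sign under every alternative run, and 0 respiratory genes were called by limma for the medium under any of them. With median scaling the median change was -0.75 in HT29 and -0.48 in DLD1, and the median of HT29 over DLD1 was 0.0629 without and 0.29 with glucose. The counts at least 2-fold lower were then 20 in HT29 and 5 in DLD1, against 5.44% and 1.95% of all genes so processed. In DLD1 27 genes were at least 1.5-fold lower, against 7.98%. The complex medians in HT29 and DLD1 were -0.62 and -0.31 for II and -0.70 and -0.57 for III, with DLD1 at -0.51 for I and -0.23 for IV. With cyclic loess, 1 gene was at least 2-fold lower in HT29 than in DLD1 in both media, and the DLD1 median of complex III was -0.24. With the local background subtracted, the HT29 median was -0.24 and that of HT29 over DLD1 without glucose was -0.0164. The median difference in change, HT29 minus DLD1, was -0.04. There 36 genes were lower in both lines, against 29.3% of all genes so processed, and 17 were higher in both. In DLD1 15 were at least 2-fold lower, against 3.36%. At least 1.5-fold lower were 21 in HT29 and 26 in DLD1, against 6.61% and 7.55%. In both media 5 were at least 2-fold lower in HT29 than in DLD1. Complex medians were then -0.16 for I, -0.71 for II, -0.18 for III and -0.0891 for IV in HT29, and 0.0253 for III in DLD1. With the deposited values, the DLD1 median was -0.42, and HT29 over DLD1 was 0.20 without and 0.34 with glucose. There 3 genes were higher in both lines. At least 2-fold lower were 13 in HT29 and 6 in DLD1, against 10.9% and 4.69% of all genes so processed. In DLD1 26 were at least 1.5-fold lower, against 14.2%. In both media 5 were at least 2-fold higher in HT29 than in DLD1, and complex IV had a median of -0.21 in DLD1. For counts higher in both lines, or between the lines, shares of all genes under these settings are not given. The cause of these shifts was not tested.

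With no replicate block, which drops the pairing by line or medium, limma called 0 genes for the medium and 1 respiratory gene between the lines, NDUFB9 (adjusted p = 0.0481, among 48 genes of all). The deposited values with the block also called 1, NDUFB9 (adjusted p = 0.0259, among 872 of all). Over all alternatives the smallest adjusted p of a respiratory gene between the lines ranged between 0.0259 and 0.292. The median of the mean change over both lines was -0.34, and with 1 line left out it was -0.48 (HT29 alone) or -0.15 (DLD1 alone). Of the recomputed changes of named genes, 176 moved by more than the spread between lines and 665 did not. A change of at least 1.5-fold turned its sign in 5 others, in HT29 for UQCRH (3.95), NDUFA4 (1.58) and NDUFS6 (0.50) and in DLD1 for NDUFV3 (0.14) with the local background subtracted, and in HT29 for NDUFA13 (-0.0275) with the brightest probe. Of the 665, the 2 other filters on dim probes gave 104 and 106, and the brightest probe 102. These settings cannot alter a gene with 1 probe above background on all 4 arrays, so the total overstates stability. With the local background subtracted 61 moved and 41 did not. The same counts were 47 and 59 with median scaling, and 39 and 67 with the deposited values. A fit with slide or scan date as a block was not run, because the columns used give neither.

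The respiratory spots are bright, with a median at percentile 94.2 to 95.9 of all probes, and the local background amounted to a median of 36.6% to 60.3% of their signal, against 70.2% to 74.1% over all spots. Isoforms of complex IV from other tissues, UQCRB and COXFA4L2 were read near the blank spots, where changes are shrunk. With 1 array per line and medium, array and condition cannot be told apart.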

Other observations

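For 9 genes 2 probes were above background on at least 1 array, and 2 further features of these probes were chosen after their values were seen. ATP5MF, the f subunit of the membrane part of the ATP synthase, was averaged at -0.60 in HT29 and -0.30 in DLD1, but its bright probe alone had 10.67 without and 11.87 with glucose in HT29, and 10.62 without and 11.20 with glucose in DLD1. That probe gives changes of -1.19 and -0.58, while the other probe was above background only with glucose, where it was at least 1.01-fold higher than without glucose in each line. The brighter of the ATP5MFP3 probes had -0.93 in HT29 and -0.72 in DLD1, close to the bright ATP5MF probe in direction and size. The probe pairs of ATP5PB, ATP5PF, NDUFB2 and NDUFC2 had the same sign in both lines. Besides NDUFA13, the probes differed in sign for DMAC2 in HT29 (-0.30 and 0.15) and for SDHC in DLD1 (-0.03 and 0.18).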
